A study of Mus musculus with 6 samples.

Results

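Six3, Six4, Six5, Eya2, Eya3, Eya4 and Dach1 are 7 relatives and partners of Six2, the homeobox gene that keeps nephron progenitors undifferentiated. They were taken by gene name, through the RefSeq accession of each array probe, and were picked with their values on all 6 arrays known, so those values are given here as a description without a test. They are 7 of 17305 genes that could be named on the array and hold 11 of its 25097 named probes. Six2 itself, Six6, Eya1 and Dach2 are not among them and serve for comparison.

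Transcripts were measured in mouse embryonic kidneys at E14.5 on 6 one-colour Agilent arrays, 1 array a sample. All mice were hybrids of 129 and C57BL/6, and the gene deleted was Sall1, which encodes a zinc finger factor of nephron progenitors. In the Six2Cre line, where Cre directs the deletion to nephron progenitors, there were 2 Sall1 knockouts (arrays 7 and 9) and 2 controls (arrays 2 and 5). In the inducible line, named Sall1CreER in the labels and CreER here, there was 1 knockout, titled CreER/flox (array 5), and 1 control, titled wt/flox (array 2), taken 48 hours after tamoxifen at E12.5. One label mentions tamoxifen for all 6 samples. Whether Cre was present in the Six2Cre controls, which exons were floxed, how the Six2Cre allele was built and whether each array was a separate embryo is not stated in the labels. In the CreER pair, CreER was named for the knockout alone, so CreER and loss of Sall1 cannot be told apart there.

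Six2 and its paralogs encode homeodomain transcription factors that bind DNA and recruit Eya proteins, which are coactivators with a phosphatase domain and bind no DNA themselves. Dach proteins act in the same complexes, mostly as corepressors. In the mouse kidney Eya1 and Six2 are known to be needed for the metanephric mesenchyme and its progenitors, whereas Six3 is known for the forebrain and eye. In the annotation Six3 is the gene next to Six2, with 0 annotated genes between them.

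The sequences upstream of Six3 and Six2 are shown because these neighbours had opposite values in Six2Cre knockouts, and that of Six4 because it holds a match to the MEF3 element, the site through which Six4 and its paralogs act on muscle genes. Each is the 250 bases before a transcription start in RefSeq (GRCm38.p6). Capitals mark CCAAT boxes in Six3 and Six2 and the MEF3 match in Six4, on either strand.
Six3, chr17:85620584-85620833, plus strand: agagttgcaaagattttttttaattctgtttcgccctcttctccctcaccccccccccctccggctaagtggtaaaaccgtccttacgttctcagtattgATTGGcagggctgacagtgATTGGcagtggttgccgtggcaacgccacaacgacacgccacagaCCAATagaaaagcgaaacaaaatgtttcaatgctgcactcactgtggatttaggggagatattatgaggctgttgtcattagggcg
Six2, chr17:85688255-85688504, minus strand: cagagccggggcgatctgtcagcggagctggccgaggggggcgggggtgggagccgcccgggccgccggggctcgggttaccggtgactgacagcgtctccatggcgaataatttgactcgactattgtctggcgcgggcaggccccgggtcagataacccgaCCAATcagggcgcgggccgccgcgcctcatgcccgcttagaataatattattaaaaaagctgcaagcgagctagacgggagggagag
Six4, chr12:73113246-73113495, minus strand: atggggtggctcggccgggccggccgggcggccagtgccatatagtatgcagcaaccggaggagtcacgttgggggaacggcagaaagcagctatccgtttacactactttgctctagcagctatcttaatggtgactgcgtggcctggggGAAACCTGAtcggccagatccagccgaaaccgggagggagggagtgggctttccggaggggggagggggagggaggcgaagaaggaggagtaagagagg
Both strands were searched for MEF3 with the letters TCAGGTTTC, for the CCAAT box by its own letters, for the TATA box as TATAAA, and for the GC box as GGGCGG. Windows were found for 6 of the 7 genes. The Six3 window held 3 CCAAT boxes and no GC box, and the Six2 window held 1 CCAAT box and 2 GC boxes. Of all 32851 windows of this length, 33.8% held a CCAAT box, 32.7% a GC box, 12.4% a TATA box and 0.387% a MEF3 element. No window of these 6 genes held the TATA box. Six4 had a second window, from another transcription start, which held no MEF3 match. All 8 windows of the 6 genes had more CpG dinucleotides than the median window (6), with 10 upstream of Six3 and 35 in the first of the Eya4 windows. These matches describe letters in a window and do not show a bound site.

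The arrays were comparable in brightness. Probes well above background made up 71.6% of the CreER knockout array and 79.8% to 82.8% of the other 5. The negative control spots were more variable on the CreER knockout array (SD 4.01, against 1.46 to 1.61 on the others). Sall1, relative to each array's 75th percentile as all log2 values below, was -2.68 and -2.03 in Six2Cre knockouts, against -0.80 and -1.41 in controls, and -4.09 in the CreER knockout, against -1.31 in its control. All 12 nephron progenitor markers were well above background on every array, as were the 9 stroma markers and the 6 endothelial markers. Array 2 of the Six2Cre controls also held skeletal muscle transcripts. The summed signal of 18 muscle markers was 52.0 times the 75th percentile there, against 3.18 on the other Six2Cre control. It was 4.22 to 4.41 in the Six2Cre knockouts, 6.27 in the CreER knockout and 3.35 in the CreER control.

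Six3 was the member whose levels differed most between arrays. It was detected in both Six2Cre knockouts and on no other array. Its processed signal, an intensity on a linear scale, was 90.8 in Six2Cre knockout 7 and 120 in Six2Cre knockout 9, against 1.77 in Six2Cre control 2 and 6.81 in Six2Cre control 5. It was 15.1 in the CreER knockout, against 1.71 in the CreER control. The dimmest probe that counted as well above background gave 20.9 on the CreER knockout array and 7.22 to 8.67 on the other 5, so the 4 arrays outside the Six2Cre knockouts give only an upper limit.

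With the control arrays set at those limits, the processed signal of Six3 was at least 12.4-fold higher in Six2Cre knockouts than in Six2Cre controls. The bound was at least 10.4-fold on slide 1 and at least 14.9-fold on slide 2. Against the CreER knockout array it was at least 4.51-fold higher in the Six2Cre knockouts. No difference or SE of the main fit is given for Six3, whose control values were below background, and no fold for the CreER pair, where both values were. Being well above background on both Six2Cre knockout arrays and on no other was seen for 0.326% of 32515 features (106). The reverse, detection on both Six2Cre control arrays alone, was seen for 0.0492%. Of the 106, Six3 had the largest lower bound, and 4 had one of at least 4-fold. Six3 was picked with these values known, so its rank and these shares are description alone.

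**Figure D1:**
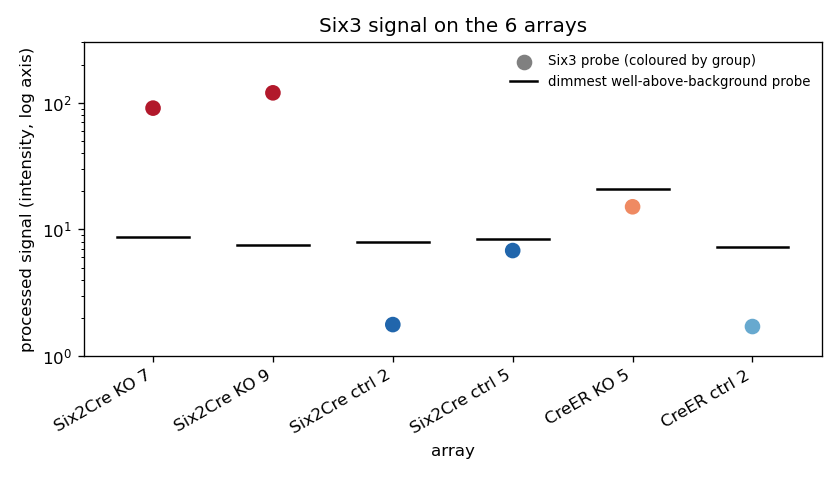
Processed signal (intensity, log axis) of the Six3 probe on each of the 6 arrays, as points coloured by group; the black bar on each array is the dimmest probe counted as well above background there. The 2 Six2Cre knockouts lie at 90.8 and 120, above their bars, and the other 4 arrays lie below theirs.

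The Six2Cre knockouts differed from their controls in Sall1 genotype and may have differed in whether they carried the Six2Cre transgene. For Six3 these cannot be told apart from the labels. Six2, the neighbour, lay at -0.89 and -0.92 in Six2Cre knockouts, against 0.88 and 0.51 in controls, and at 0.40 in the CreER knockout, against 0.90 in its control. Of the other 8 genes listed around the pair, 5 had a probe. Their Six2Cre log2 differences were -0.71 for Slc3a1, an amino acid transporter subunit of the proximal tubule, -0.41 for Prkce, a protein kinase C, -0.29 for Epas1, a hypoxia-inducible factor, -0.26 for Ppm1b, a phosphatase, and 0.20 for Prepl, a peptidase-like protein (SE 0.24 to 0.40). None of the 5 passed in limma (lowest adjusted p = 0.743, with 1 of 5, Slc3a1, at an unadjusted p under 0.05). All 5 were well above background on all 6 arrays, so none could show the detection pattern of Six3, and nothing is read from its absence. Slc3a1 had a log2 difference of 1.42 in the CreER pair, of the other sign. In the same knockouts all 6 proximal tubule markers lay below the controls (median -3.58).

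Of the markers of eye and forebrain, the tissues in which Six3 is best known, Otx2 was well above background on no array. Lhx2, a LIM homeobox factor, was well above background on all 6 arrays, at -4.84 and -4.80 in Six2Cre knockouts, against -5.22 and -5.21 in controls, and -4.49 in the CreER knockout, against -5.68 in its control. Its part in the Six3 result was not tested.

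Among the genes whose levels over the 6 arrays were closest to those of Six3, by the root mean square difference of centred log2 values, were Adcy8, an adenylyl cyclase (1.02), and Gpr149, an orphan receptor (1.23). Adcy8 was -3.23 and -3.98 in Six2Cre knockouts, against -6.97 and -6.45 in controls. It was -5.19 in the CreER knockout, against -7.38 in its control. These distances are large beside those of the other genes below, and 4 of the 6 Six3 values that they use lay below background. Gpr149 was itself well above background on only 2 arrays, the fewest for a feature to be kept. Its highest values were -7.34 and -7.41 in the Six2Cre knockouts, so its likeness to Six3 is set in part by that filter.

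The other paralogs, Six4 and Six5, were well above background on all 6 arrays. Six4, known for its part in muscle development, was -3.14 and -3.33 in Six2Cre knockouts, against -3.38 and -2.83 in controls. It was -3.40 in the CreER knockout, against -3.44 in its control. Its groups overlapped, and the 4 group levels lay within 0.34 log2 units of one another. The Six2Cre log2 difference was -0.13 (95% interval from limma -0.93 to 0.67), and it was 0.15 without control 5, so its direction rests on that array.

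Six5, which lies beside the myotonic dystrophy kinase gene, was 1.46 and 1.01 in Six2Cre knockouts, against 0.94 and 0.94 in controls. It was 0.94 in the CreER knockout, against 1.01 in its control. Array 7 was thus the high one, and knockout 9 had the level of the CreER control. The Six2Cre log2 difference was 0.29 (95% interval -0.44 to 1.02). It was 0.067 without knockout 7 and 0.52 without knockout 9.

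Of Eya2, Eya3 and Eya4, Eya2 had the largest Six2Cre difference, and it was below its control in all 3 pairs. It was -2.20 and -1.86 in Six2Cre knockouts, against -0.81 and -1.71 in controls, and -1.38 in the CreER knockout, against -0.89 in its control. Both Six2Cre knockouts were the lowest of the 6 arrays, and the groups did not overlap, although knockout 9 lay only 0.15 below control 5. The Six2Cre log2 difference was -0.77 (SE 0.39; 95% interval -1.81 to 0.26), which is 1.71-fold lower, with -0.49 on slide 1, -1.05 on slide 2 and -0.48 in the CreER pair. Without control 2, the array with the highest signal of muscle transcripts, it was -0.32, and without control 5 it was -1.22. The CreER control had nearly the Eya2 level of control 2 with a summed muscle signal of 3.35. Eya2 is also known from developing muscle, and the part of these transcripts in its level was not tested.

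The genes closest to Eya2 over the 6 arrays were Actn3, a muscle alpha-actinin (root mean square difference 0.054 log2 units), Slc9a3r1, a scaffold of the brush border (0.072), and Eno3, the muscle enolase (0.086). Actn3 was -0.99 and -0.64 in Six2Cre knockouts, against 0.35 and -0.42 in controls. Like Eya2, its values on control 2 and the CreER control (0.41) were close.

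Eya4, known for hearing and the heart, was -1.02 and -0.93 in Six2Cre knockouts, against -0.77 and 0.03 in controls, and -0.90 in the CreER knockout, against -0.66 in its control. Control 5 stood highest, and the other 5 arrays spanned 0.36 log2 units. The log2 difference was -0.61 (SE 0.35; 95% interval -1.53 to 0.32) in the Six2Cre line, with -1.05 on slide 1 and -0.16 on slide 2. It was -0.21 without control 5 and -1.002 without control 2. A second, dimmer Eya4 probe had a difference of -0.41 in the Six2Cre line and -0.074 in the CreER pair, with control 5 again the highest. The genes closest to Eya4 were Nab1, a corepressor of Egr proteins (0.069), Acvr1b, an activin receptor (0.085), and Lrrc26, a subunit of potassium channels (0.089).

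Eya3, a widely expressed member, hardly varied. Its brightest probe was 0.049 and 0.26 in Six2Cre knockouts, against 0.32 and 0.062 in controls, and 0.37 in the CreER knockout, against 0.36 in its control. The arrays of slide 1 were the lowest, in both groups. Its Six2Cre log2 difference was -0.039 (95% interval -0.72 to 0.65), and the other 2 probes gave -0.033 and 0.0079. The sign turned without knockout 7 and without control 2.

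Dach1, the corepressor, was 2.35 and 2.63 in Six2Cre knockouts, against 2.63 and 2.67 in controls, and the groups overlapped. It was 3.06 in the CreER knockout, against 2.61 in its control, which made the CreER knockout the highest of the 6 arrays. The Six2Cre log2 difference was -0.16 (95% interval -0.82 to 0.51), and -0.021 without knockout 7. The CreER difference was 0.46. A second, dimmer Dach1 probe gave -0.46 in the Six2Cre line and 0.47 in the CreER pair, again with knockout 7 lowest and the CreER knockout highest. The CreER knockout was the array of more variable negative controls, and its part in the Dach1 value was not tested. The contrast between the 2 lines' differences was 0.61 for the brighter probe (SE 0.44).

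**Figure D2:**
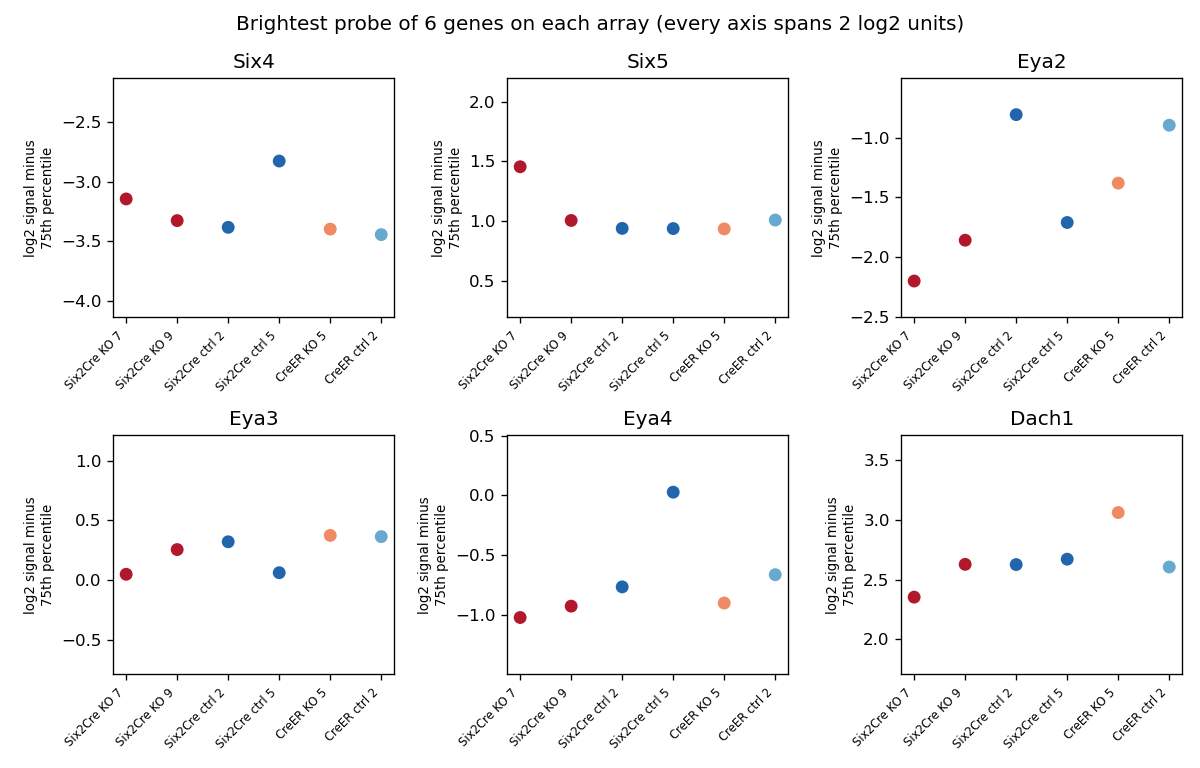
Log2 signal minus the array's 75th percentile (each vertical axis spans 2 log2 units) for the brightest probe of Six4, Six5, Eya2, Eya3, Eya4 and Dach1 on the 6 arrays, 1 point an array. The Six2Cre knockouts are lowest for Eya2 (-2.20 and -1.86), control 5 stands high for Eya4 (0.03), and the CreER knockout is highest for Dach1 (3.06).

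Over the 7 genes, limma called 0 in the Six2Cre comparison at an adjusted p under 0.05, where it called 0% of all 26394 features. At an unadjusted p under 0.05 it held 1 of the 7, Six3, where 3.63% of all features were higher and 2.71% lower. With slide as a block and the trend and robust options of eBayes, limma called 1 of the 7, again Six3, where 1.24% of features were called higher and 1.27% lower. Six3 passed the filter on dim probes only through the 2 knockout arrays where it was high, so it had to differ, and the arrays that served to pick the genes are the same. Nothing is read from these counts. Both knockouts lay above both controls for Six3 and Six5 (17.6% of all features) and below both for Eya2 and Eya4 (12.6%). Eya2 and Eya4 were lower in all 3 knockout and control pairs, where 14.4% of all features were. In the CreER pair 0 of the 6 genes measured there differed by 2-fold, where 1.38% of features were at least 2-fold higher and 2.21% at least 2-fold lower. Neither the contrast between the lines' differences nor that of the Six2Cre line with the CreER line called any of the 7, where each called 0% of all features. At an unadjusted p under 0.05 the first had 1.17% of features higher and 1.16% lower, and the second 2.32% higher and 1.73% lower. The median Six2Cre difference was -0.13 over the 7 genes and 0.027 over all features.

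Among relatives outside the 7, the progenitor genes Eya1 and Six2 had larger differences than Dach2. Eya1, the coactivator needed to form the kidney, was 1.81 and 1.59 in Six2Cre knockouts, against 2.60 and 2.92 in controls. Its log2 difference was -1.06 (SE 0.27, limma adjusted p = 0.476), and that of Six2 was -1.60 (SE 0.27, limma adjusted p = 0.227). With slide as a block and the trend and robust options, both were called lower, with limma adjusted p = 0.0131 for Eya1 and 0.00569 for Six2. That setting called 1.24% of all features higher and 1.27% lower. It was the only 1 of 11 alternatives that called any feature in this comparison. The CreER differences were -0.22 for Eya1 and -0.50 for Six2. Six6 was well above background on no array. Dach2, a relative of Dach1, had a log2 difference of 0.37 (SE 0.24) in the Six2Cre line and 0.67 in the CreER pair. In bulk kidney tissue, fewer cells of a type and less RNA per cell cannot be told apart. The nephron progenitor markers had a median difference of -1.11, with all 12 lower, where 12195 of all 26394 features were lower. Six2 and Eya1 are themselves among these 12, as are Osr1 and Wt1 named below, so the markers are not a separate set of genes.

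**Figure D3:**
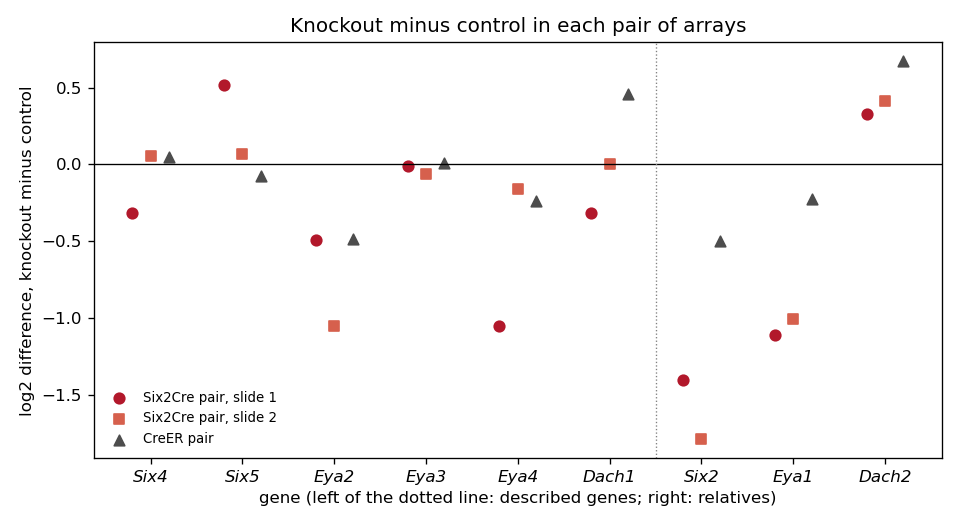
Log2 difference, knockout minus control, in the Six2Cre pair of slide 1 (circles), the Six2Cre pair of slide 2 (squares) and the CreER pair (triangles), for 6 of the described genes and, right of the dotted line, 3 relatives; Six3 is left out because its controls were below background. Eya2, Eya4, Six2 and Eya1 lie below 0 in all 3 pairs, and Dach1 lies at 0.46 in the CreER pair.

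The wider pathway was summarised over lists of cofactors, upstream partners and targets. Of the cofactors, which include Groucho-type and other corepressors, 8 of 11 were higher and 3 lower in Six2Cre knockouts, with a median of 0.059. The largest differences were those of the Groucho-type corepressor Tle2 (0.66), Ncor1, a nuclear receptor corepressor (-0.44), and Sin3a, a scaffold of histone deacetylases (-0.20). All 7 upstream partners measured were lower, with a median of -0.42, led by Osr1, a zinc finger factor of the early kidney mesenchyme (-0.88), and the kidney factors Pax2 (-0.54) and Wt1 (-0.46). Of the 7 targets measured, 6 were lower, with a median of -0.19. Of all 26394 features, 12195 were lower and 14199 higher. Myog, a muscle factor known as a target of Six4, was -2.82, with -4.90 on slide 2, which holds control 2, and -0.75 on slide 1. Myc was -1.07 and Ezr, which encodes ezrin, -0.54. In the CreER pair Myog had a log2 difference of 2.88, of the other sign. The median CreER differences were 0.046 for the cofactors, 0.11 for the upstream partners and -0.18 for the targets. None of these genes passed in limma for the Six2Cre comparison over all features (lowest adjusted p = 0.763). At an unadjusted p under 0.05 there was 1 cofactor, Tle2, 1 upstream partner, Osr1, and 0 targets. With slide as a block and the trend and robust options, limma called 1 of them, Myc (adjusted p = 0.0144). That setting called 1.24% of all features higher and 1.27% lower. The Myc groups overlapped, at 1.34 and 0.11 in Six2Cre knockouts, against 1.08 and 2.51 in controls.

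**Figure D4:**
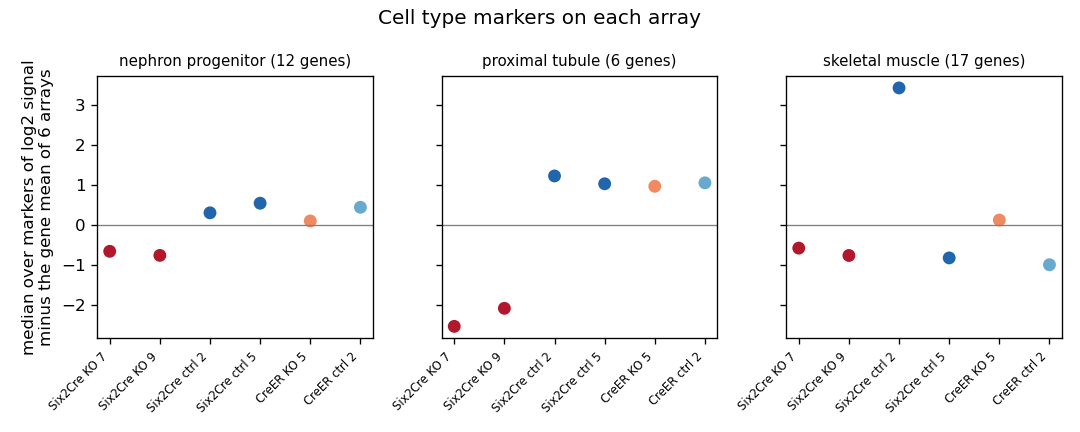
Median over the markers of a cell type of the log2 signal minus each gene's mean over the 6 arrays, 1 point an array, for nephron progenitors (12 genes), proximal tubule (6) and skeletal muscle (17). Muscle stands highest on Six2Cre control 2 (3.41), followed by the CreER knockout (0.13). The proximal tubule and progenitor medians are lowest in the 2 Six2Cre knockouts.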

How the data were processed

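RNA from embryonic kidneys was labelled with Cy3 (0.25 ug a sample) and hybridised to 1-colour Agilent arrays, per the labels. Scans were read by the authors with Agilent Feature Extraction (version 10.5.1.1), as the headers state. Per the file headers, the deposited processed signal is a linear intensity from which background and spatial trend were removed array by array, with no normalization across arrays. The deposited values of the whole series held that intensity too (100% of 40929 single-spot probes within a relative tolerance of 0.001).

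The spots of a probe were averaged as log2, and each array's 75th percentile was subtracted. Outlier flags were absent for 40987 of 41174 non-control probes, including all 11 of the 7 genes. A gene is its probe of highest mean; features well above background on at least 2 of 6 arrays were kept (26394, with all 7 genes among them, Six3 through the 2 Six2Cre knockout arrays alone). The array design is of another genome build than the annotation (GRCm38.p6), which was used for names, gene order and promoter sequences. One limma fit (limma 3.58.1, R 4.3.3, package data.table in version 1.17.8) of 4 groups gave the contrasts, two-sided with Benjamini-Hochberg adjustment at 0.05; each CreER group, with its 1 array, takes its spread from the Six2Cre groups. Slide 1 held Six2Cre knockout 7 and control 5, slide 2 the other 4 arrays, and scan batches followed slides. p values measure the spread between these arrays, which may be technical, and their number limits the precision. The fit was tested on simulated data. Alternatives were slide as a block, eBayes options, quantile normalization, normexp (offset 50), other filters, the mean of probes, and leaving out each Six2Cre array. The genes named are the 7, their relatives, the neighbours of Six2, the 3 largest differences of each pathway list, and the 3 genes closest to any of the 7 that ranges over at least 1 log2 unit. Some genes that this rule or a list holds are not reported here. The 7 genes and all lists were chosen with earlier results of these data known. Plots used matplotlib 3.10.9 (Python 3.11.15).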

Additional observations from a re-analysis of the deposited data

How the results depend on the processing

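The Six2Cre comparison called 0 features in 10 of 11 alternatives and 660 (326 higher, 334 lower) with slide as a block and eBayes trend and robust. That setting called 8 features for the contrast between the lines' differences, which had 0 in the other 10. Leaving out a Six2Cre array gave 0 to 0 calls for both, and 0 to 6 for the Six2Cre line against the CreER line (5 without knockout 7 and 6 without knockout 9). The number of features at least 2-fold different in the CreER pair was 931, and 156 with normexp, 5041 with no filter and 337 with features well above background on all 6 arrays, a filter that removes Six3. In 11 alternatives Six5 kept its direction (0.067 to 0.52), as did Eya2 (-1.22 to -0.32), Eya4 (-1.002 to -0.21) and Dach1 (-0.31 to -0.021). Eya3 reversed to 0.064 without Six2Cre knockout 7 and 0.090 without Six2Cre control 2 (range with 1 array left out -0.17 to 0.090), and Six4 to 0.15 without Six2Cre control 5 (-0.41 to 0.15). The cause was not tested. Levels below background limit what can be said of Six3 outside the Six2Cre knockouts. Its Six2Cre log2 difference was 1.29 with normexp, so the size of that difference depends on the background treatment. With replicate numbers, no paired analysis was possible because the Six2Cre knockouts (7 and 9) and controls (2 and 5) share no replicate number. The pairs used are those of a slide, which was fitted as a block.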

Other observations

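Besides Six3, 53 named genes were well above background on both Six2Cre knockout arrays and on no other. Those with large lower bounds, chosen after their values were seen, included Sphkap, an anchoring protein of protein kinase A (at least 3.36-fold), and Adh7, an alcohol dehydrogenase (at least 2.43-fold). Dach2 was measured by 3 probes, whose differences were 0.37, 0.21 and 0.34 in the Six2Cre line and 0.67, 0.49 and 0.61 in the CreER pair.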
